A study of Mus musculus with 20 samples.

Results

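The cytosolic ribosomal protein genes were examined for H3K14ac, Setdb1 and Kap1 in mouse liver. They were taken by symbol: protein-coding genes of chromosomes 1 to 19 named Rpl or Rps with digits and an optional a, l or x, together with Rplp0, Rplp1, Rplp2 and Rpsa, and without the Rps6k kinases. This gave 76 of 20807 protein-coding genes, of which 43 encode proteins of the large (60S) subunit, 30 of the small (40S) subunit and 3 the P stalk. Chromatin immunoprecipitation followed by sequencing (ChIP-Seq) had been carried out on whole livers of young (3 months) and old (21 months) C57BL/6 mice, male per the study's methods, without other treatment. The sample labels name 3 livers per age for H3K14ac and Setdb1 and 2 livers per age for Kap1. The number merged is uncertain for H3K14ac and Setdb1, since the methods have 3 and the figure legends 2. For each mark and age the authors merged the livers and deposited 1 list of peaks, so that 6 lists were compared. Liver tissue holds hepatocytes and other cell types, and the lists do not separate them. H3K14ac peaks lay within 1 kb of a start site of 10 of 21 hepatocyte marker genes in young and 6 of 21 in old liver, whereas 2 and 1 of 26 marker genes of other liver cells had one. The hepatocyte shares were 47.6% and 28.6%, against 19.0% and 27.6% of all coding genes. In old liver the hepatocyte share was thus near that of all coding genes. The defining genes Alb and Hnf4a had none at either age.

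Ribosomal proteins coat the ribosomal RNAs and complete the decoding and peptide-bond-forming machinery of the ribosome. Their genes are transcribed at a high rate in nearly all cells, mostly from CpG-rich promoters, and their mRNAs typically begin with a run of pyrimidines that couples translation to growth signals. H3K14ac, the acetylation of lysine 14 of histone H3, is found at active promoters. Setdb1 is a histone methyltransferase that writes H3K9 methylation, and Kap1 (Trim28) is the corepressor that brings it to its targets, among them retroelements and zinc finger genes. The study asked where the mark and both factors lie in young and in old liver.

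Promoters of the genes that carry the comparison of ages are shown first. Each runs from 150 bases before to 30 bases after the RefSeq start (GRCm38.p6). Capitals mark the sequences counted below on either strand: CCGGAAG (an Ets factor core), AAGATGG (a YY1 core), GGGCGG (a GC box), CCAAT, the TATA box TATAAA, and a run of at least 8 C or T near the start. Rpl34 stands for genes with H3K14ac at both ages, Rpl19 for young only, Rps21 and Rplp0 for old only, and Rpl24 for genes with none.
Rpl34 promoter, chr3:130730308-130730487, minus strand: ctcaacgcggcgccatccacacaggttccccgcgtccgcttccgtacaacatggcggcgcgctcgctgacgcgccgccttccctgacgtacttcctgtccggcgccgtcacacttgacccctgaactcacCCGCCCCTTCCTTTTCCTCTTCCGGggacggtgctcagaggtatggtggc
Rpl19 promoter, chr11:98026560-98026739, plus strand: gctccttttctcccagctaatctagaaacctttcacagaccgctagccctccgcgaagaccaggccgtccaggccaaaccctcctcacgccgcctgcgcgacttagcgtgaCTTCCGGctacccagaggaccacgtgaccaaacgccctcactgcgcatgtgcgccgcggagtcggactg
Rps21 promoter, chr2:180257229-180257408, plus strand: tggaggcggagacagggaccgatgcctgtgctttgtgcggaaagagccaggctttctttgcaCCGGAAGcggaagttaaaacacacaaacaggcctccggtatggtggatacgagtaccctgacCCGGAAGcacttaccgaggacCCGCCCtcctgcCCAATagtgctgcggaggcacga
Rplp0 promoter, chr5:115559317-115559496, plus strand: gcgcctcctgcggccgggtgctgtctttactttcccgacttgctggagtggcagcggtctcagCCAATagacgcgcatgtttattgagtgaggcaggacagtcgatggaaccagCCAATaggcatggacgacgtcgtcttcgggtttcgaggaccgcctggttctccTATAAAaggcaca
Rpl24 promoter, chr16:55966125-55966304, plus strand: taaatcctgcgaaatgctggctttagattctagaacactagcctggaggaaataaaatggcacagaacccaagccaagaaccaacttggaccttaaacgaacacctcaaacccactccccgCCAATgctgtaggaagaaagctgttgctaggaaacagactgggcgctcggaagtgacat

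The start sites of ribosomal protein genes were marked by H3K14ac at a higher share than those of all protein-coding genes, and few had Setdb1 or Kap1, which were also rare over all coding genes (given below). In young liver 32 of the 76 genes, or 42.1% (95% Wilson interval 31.6% to 53.3%), had an H3K14ac peak within 1 kb of an annotated start, against 19.0% of all protein-coding genes. In old liver 45 genes had one, or 59.2% (48.0% to 69.6%), against 27.6%. The number of marked ribosomal protein genes in old liver was 1.41 times that in young, and the number of all marked coding genes 1.45 times, so that the rise among the ribosomal protein genes was near that of the background. These intervals cover counting error over genes only. Because the livers of an age were merged, replicate error cannot be given and the ages could not be compared by a test. The lists give no read counts, so the depth behind a peak is unknown, and an absent peak says only that none was called.

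At both ages 22 genes carried a start-site peak, or 28.9%, against 12.0% of coding genes. A peak in young liver only was found at 10 genes, or 13.2%, against 7.06%, and a peak in old liver only at 23 genes, or 30.3%, against 15.7%. No H3K14ac peak was found at the start of the remaining 21 genes, or 27.6%, against 65.3%. The 22 shared genes were 68.8% of those marked in young and 48.9% of those marked in old liver. Over all coding genes these shares were 62.9% and 43.4%.

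**Figure D1:**
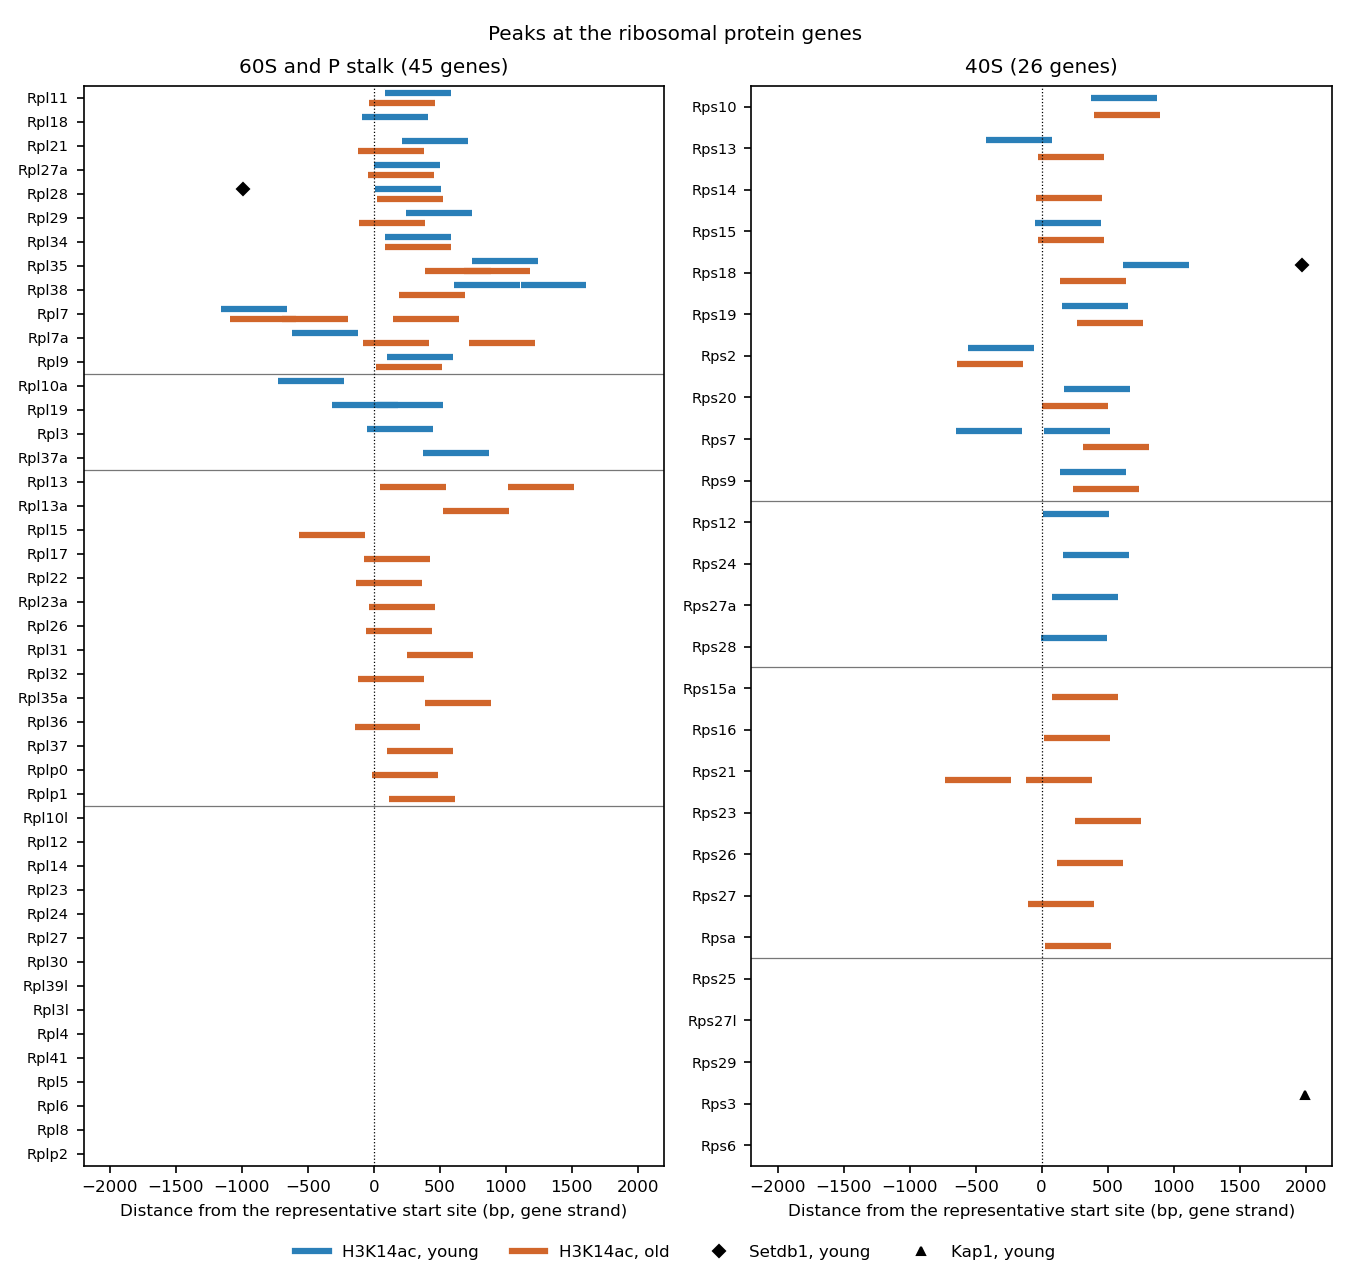
Position of the peaks at each ribosomal protein gene, in bp from its representative start site along the gene's strand; bars are H3K14ac peaks drawn at their width (young blue, old orange), diamonds are Setdb1 and triangles Kap1 peak midpoints, and lines separate genes with a peak at both ages, in young only, in old only and at neither age. Most bars lie just downstream of the start, and the lowest block of each panel holds the genes without a start-site peak; peaks centred more than 2000 bp from the representative start, such as the old peak of Rpl18 and the young H3K14ac peaks of Rps14, are not drawn, and neither are 5 of the genes.

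Of the 22 genes with a peak at both ages, 21 had peaks that shared at least 1 bp between the ages, or 95.5% (78.2% to 99.2%). Over all coding genes with a peak at both ages this share was 86.4%, which lies within that interval. The midpoints of the closest young and old peaks were a median of 106.5 bp apart and ranged from 3 bp to 538 bp. Among the 60S genes these were Rpl7, Rpl9, Rpl11, Rpl18, Rpl21, Rpl27a, Rpl28, Rpl29, Rpl34, Rpl35 and Rpl38. At Rpl34, whose promoter is printed above, the young and old peaks were 334 and 331 bp downstream of the start and shared 497 of their 500 bp. At Rpl28 the peaks lay 143 and 157 bp downstream and shared 486 bp, and at Rpl27a they lay 252 and 209 bp downstream and shared 457 bp. At Rpl35 the young peak lay 993 bp and the old peaks 936 and 637 bp downstream of the annotated start, and the closest pair shared 443 bp. The RefSeq start of Rpl35 lies 493 bp from the nearest GENCODE start. Rpl11, which with Rpl5 binds the 5S ribosomal RNA and can restrain Mdm2, had peaks 335 bp downstream in young and 210 bp downstream in old liver that shared 375 bp. Rpl5, its partner, had no H3K14ac peak at either age. The nearest was 231.6 kb from its start.

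The overlap was smaller in other genes. At Rpl38, a gene required for the translation of Hox mRNAs in the embryo, the young peak was 777 bp and the old peak 363 bp downstream, and they shared 86 bp. Rpl29 peaks shared 144 bp and Rpl21 peaks 167 bp. Rpl7a was the single gene with peaks at both ages that did not overlap. Its young peak lay 368 bp upstream, nearer to the start of the neighbouring gene Med22, and its old peaks lay 170 and 974 bp downstream.

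Among the 40S genes, peaks of both ages overlapped at Rps2, Rps7, Rps9, Rps10, Rps13, Rps14, Rps15, Rps18, Rps19 and Rps20. Rps15, a protein of the head of the small subunit, had peaks 4 bp downstream in young and 30 bp downstream in old liver that shared 474 bp. Rps10 peaks shared 479 bp, and lay nearest to the start of the annotated readthrough gene RPS10-NUDT3. Rps19, the gene mutated most often in Diamond-Blackfan anaemia, had peaks 60 and 171 bp downstream with 389 bp in common. At Rps2 both peaks were upstream, 258 bp away at 3 months and 341 bp away at 21 months, and shared 417 bp. Rps18 had the smallest overlap, 23 bp, between a young peak 854 bp and an old peak 377 bp downstream.

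For 2 of the 22 genes the shared peaks belonged to a distant start site. Rps14 has an annotated start far upstream of its main start, close to the gene Ndst1, and the young peaks lay there, 26621 and 26386 bp upstream of the main start. At the main start of Rps14 only old liver had a peak, 208 bp downstream. Rpl18 had a young peak 157 bp downstream of its main start, whereas the old peak, and a second young peak that overlapped it, lay 3045 and 2932 bp upstream, nearest to the start of Sphk2. With 1 representative start per gene, 31 genes were marked in young liver, 44 in old and 20 at both ages.

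Peaks in young liver only were found at the 60S genes Rpl3, Rpl10a, Rpl19 and Rpl37a and at 6 40S genes, among them Rps12, Rps24, Rps27a and Rps28. Rpl19, a protein of the bridge between the subunits, had overlapping peaks 70 bp upstream and 272 bp downstream that covered 842 bp, and its nearest old peak was 4415 bp away. Rpl3, which reaches toward the peptidyl transferase centre, had a young peak 195 bp downstream. Rps27a, made as a fusion with ubiquitin, had one 328 bp downstream. Over the 10 genes the nearest old peak was a median of 56.3 kb from a start, and it lay within 5 kb for 2 of them.

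Peaks in old liver only were found at 13 60S genes, 8 40S genes and 2 P stalk genes. Among the 60S genes were Rpl13, Rpl13a, Rpl15, Rpl17, Rpl22, Rpl23a, Rpl26, Rpl31, Rpl32, Rpl35a, Rpl36 and Rpl37. Rpl23a, part of the exit of the peptide tunnel where nascent chains meet the signal recognition particle, had a peak 210 bp downstream. Rpl13a, known as a translational inhibitor after its release from the ribosome, had a peak 637 bp downstream, and the nearest young peak was 1353 bp from its start, just outside the window. The peak of Rpl15 was 317 bp upstream and nearer to the start of Nkiras1. For Rpl31 the nearest young peak was 1235 kb away.

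The 40S genes with an old peak alone included Rps15a, Rps16, Rps21, Rps23, Rps26, Rps27 and Rpsa. Rps21 had peaks 481 bp upstream and 132 bp downstream that covered 1000 bp. Rps23, which sits at the decoding site, had a peak 505 bp downstream. Rpsa, known also as the laminin receptor precursor, had a peak 122 bp downstream. Over the 23 genes the nearest young peak was a median of 40.5 kb from a start, and it lay within 5 kb for 2 of them. Over all coding genes the nearest peak of the other age lay within 5 kb for 12.4% of those marked in young only and 8.35% of those marked in old only, with medians of 35.2 and 53.8 kb.

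The P stalk, which recruits elongation factors to the large subunit, had no H3K14ac start-site peak in young liver. In old liver Rplp0 had a peak 237 bp and Rplp1 a peak 364 bp downstream of the start. Rplp2 had none at either age, and its nearest peaks were 7315 bp (young) and 9722 bp (old) from a start. With 3 genes, this group's share in old liver has an interval from 20.8% to 93.9%.

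By subunit, 16 of 43 60S genes (37.2%, 24.4% to 52.1%) and 16 of 30 40S genes (53.3%, 36.1% to 69.8%) were marked in young liver. In old liver 25 60S genes (58.1%, 43.3% to 71.6%) and 18 40S genes (60%, 42.3% to 75.4%) were marked. The intervals of the subunits overlapped at both ages.

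The 21 genes without a start-site peak of H3K14ac were 14 60S genes (Rpl3l, Rpl4, Rpl5, Rpl6, Rpl8, Rpl10l, Rpl12, Rpl14, Rpl23, Rpl24, Rpl27, Rpl30, Rpl39l and Rpl41), 6 40S genes (among them Rps3, Rps6, Rps25, Rps27l and Rps29) and Rplp2. Rps6 is the substrate of the S6 kinases, and Rpl4 lines the peptide tunnel. Overlapping the gene body, Rpl5 and Rps3 had a Kap1 peak and Rpl3l an H3K14ac peak, and the other 18 genes had no peak of any list in the window or body. The nearest H3K14ac peak of either age was a median of 29.8 kb from a start of these 21 genes, and it lay within 5 kb for 3 of them. The 4 genes of the set with a symbol ending in l all belong here. Rpl10l and Rpl39l are known from testis, Rpl3l from striated muscle and Rps27l as a p53 target. None of these 4 genes was marked at its start, whereas 55 of the other 72 genes were marked at 1 or both ages. Over all coding genes 65.3% were unmarked, and 4 genes are too few to be set apart from that share. The peak of Rpl3l in old liver overlapped the last bases of the gene, with its midpoint 8362 bp from the representative start, and lay near the start of Msrb1. Of the paralogues that the symbol rule leaves out, Rpl36al was marked at both ages, Rpl22l1 in old liver only and Rpl7l1 at neither age. This division by symbol was made after the values had been seen.

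**Figure D2:**
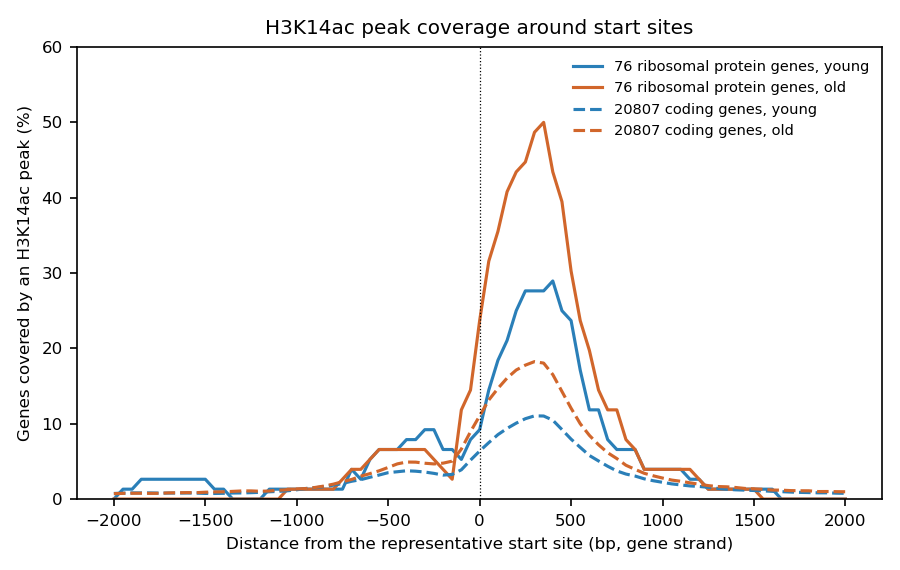
Percent of genes covered by an H3K14ac peak at each distance from the representative start (bp along the gene's strand), for the 76 ribosomal protein genes (solid) and all 20807 coding genes (dashed), young in blue and old in orange. Coverage of the ribosomal protein genes reaches 28.9% in young and 50% in old liver just downstream of the start, and that of all coding genes 11.0% and 18.2%.

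The peaks lay downstream of the start. Start-site windows held 37 H3K14ac peaks in young and 52 in old liver. The median midpoint was 160 bp downstream in young (interquartile range −70 to 334 bp) and 170.5 bp downstream in old liver (102.5 to 350.25 bp). Downstream midpoints made up 73.0% of the young and 82.7% of the old peaks. For all coding genes the medians were 192.5 and 189 bp and the downstream shares 70.5% and 74.3%. Coverage was highest 400 bp downstream in young liver, where 22 of the 76 genes were covered, and 350 bp downstream in old liver, where 38 were. These counts refer to the representative start, and that base itself was covered in 7 genes in young (9.21%, against 6.37% of all coding genes) and 18 in old liver (23.7%, against 11.0%). Any annotated start was covered by 15 of the young and 26 of the old peaks, or 40.5% and 50%. For the start-site peaks of all coding genes these shares were 37.5% and 43.7%. Another gene's start was nearer than the ribosomal protein gene's own for 5 of the young and 4 of the old peaks. The latter count was not made over all coding genes.

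Each of the 39 young and 54 old H3K14ac peaks at these genes, gene bodies included, was exactly 500 bp wide. Base pairs covered therefore mostly count peaks. Coverage in the window was greater in young liver for 12 genes, greater in old for 29 and equal for 35, of which 21 had none at either age. The same counts were not made over all coding genes. Among all coding genes, the number marked in old liver was 1.45 times that in young, so more genes with an old excess do not set this group apart. Among the genes with more in young liver, the excess was 842 bp at Rpl19 and 500 bp at several genes, Rps7 and Rpl18 among them. Among those with more in old liver, it was 1000 bp at Rps21 and 962 bp at Rpl7, which had 344 bp of coverage at 3 months and 1306 bp at 21 months. Rpl7 shares its upstream region with Rdh10, whose start was the nearest to the young peak, 907 bp upstream of Rpl7, and to the old peak 840 bp upstream. The other old peaks of Rpl7 lay 445 bp upstream and 398 bp downstream.

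Setdb1 was found within 1 kb of a start at 1 ribosomal protein gene, Rpl28, in young liver (1.32%, 0.233% to 7.08%), against 4.05% of coding genes, and at none in old liver, against 1.20%. Kap1 was found at none in young liver, against 5.48%, and at none in old liver, against 2.36%. A count of 0 of 76 genes allows a share of up to 3.95% by the limit of 3 counts and 4.81% by the upper Wilson bound. The background of Setdb1 in young liver lay within the interval of its 1 gene, and the background of both factors in old liver within the limits of 0 genes. That of Kap1 in young liver lay above them, but with a window of 500 bp it was 3.69%, within both, and with the representative start 4.37%, within the Wilson bound. No gene had a start-site peak of Setdb1 or of Kap1 at both ages, where the background was 0.159% and 0.980%. The Setdb1 peak at Rpl28 was centred 993 bp upstream, outside the gene, and 902 bp from the nearest young H3K14ac peak. Soft-masked repeats made up 51% of it.

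With the gene body counted as well, 5 genes had a Setdb1 peak in young liver (Rpl28, Rpl34, Rpl35, Rps14 and Rps18), against 36.1% of coding genes, and none in old liver, against 14.9%. Kap1 was found at 4 genes in young liver (Rpl5, Rpl7, Rps3 and Rps14), against 28.4%, and at none in old liver, against 15.7%. Ribosomal protein genes have a median length of 3399.5 bp and all coding genes one of 17629 bp, and the part of this difference in the counts was not tested. The Setdb1 peaks of Rpl34, Rpl35 and Rps18 lay in introns, 3033, 2439 and 1962 bp downstream of a start. Those of Rps14, 10993 bp downstream of the upstream start for Setdb1 and 2367 bp before the main start for Kap1, lay within its long annotated transcripts. The Kap1 peaks of Rpl7 and Rpl5 were intronic, 3066 and 5005 bp downstream. The Kap1 peak of Rps3 covered a whole coding exon, 1895 bp downstream, and held no soft-masked base. No H3K14ac peak at a ribosomal protein gene shared a base with a Setdb1 or Kap1 peak of either age. Only 5 Setdb1 and 4 Kap1 peaks lay at these genes, so few overlaps were possible. No peak at these genes had a second copy in the genome. Neither count was made over all coding genes, so neither can be called particular to this set. The Setdb1 peak nearest to a start and the exonic Kap1 peak read as follows in GRCm38.
Setdb1 peak at Rpl28, chr7:4791781-4791980, plus strand: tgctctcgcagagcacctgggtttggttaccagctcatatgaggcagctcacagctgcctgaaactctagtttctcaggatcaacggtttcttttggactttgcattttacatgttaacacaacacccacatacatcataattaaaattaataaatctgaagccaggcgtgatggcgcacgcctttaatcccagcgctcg
Kap1 peak at Rps3, chr7:99481666-99481815, plus strand: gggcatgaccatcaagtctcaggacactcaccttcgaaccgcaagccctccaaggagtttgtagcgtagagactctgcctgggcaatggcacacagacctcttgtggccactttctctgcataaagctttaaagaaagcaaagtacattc

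**Figure D3:**
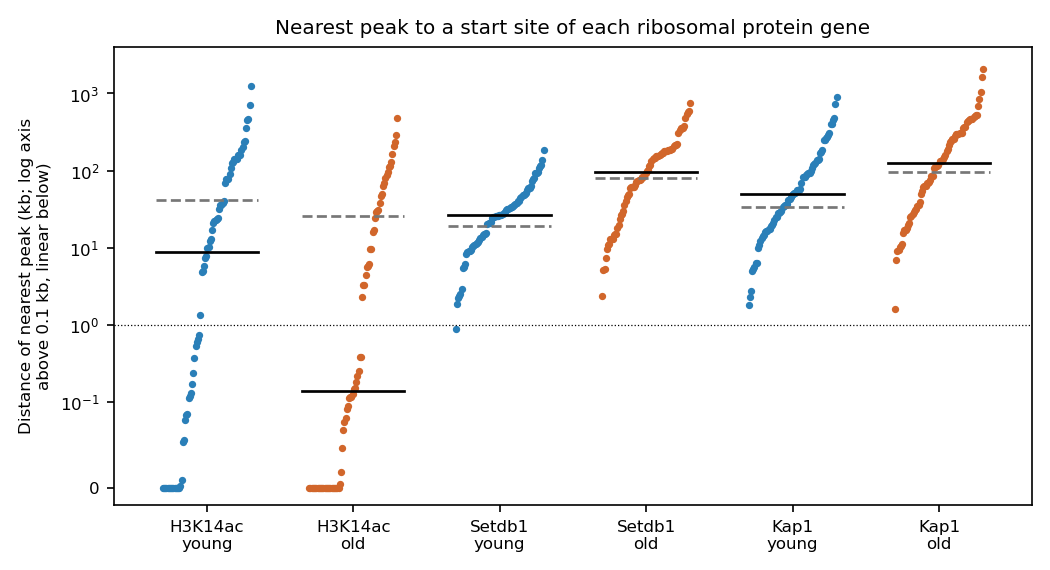
Distance in kb from a start site of each ribosomal protein gene (points, sorted within a list, n = 76) to the nearest peak of each of the 6 lists; the axis is logarithmic above 0.1 kb and linear below, black lines are medians of these genes, dashed grey lines medians of all coding genes, and the dotted line is 1 kb. In the H3K14ac lists the medians of the ribosomal protein genes lie below those of all genes, and in the Setdb1 and Kap1 lists above them.

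The nearest Setdb1 peak was a median of 26.3 kb from a start of these genes in young and 95.6 kb in old liver, against 19.0 and 80.5 kb for all coding genes. For Kap1 the medians were 49.1 kb in young and 125 kb in old liver, against 33.8 and 96.9 kb. The lists themselves differed in size, with 50583 young and 13877 old Setdb1 peaks and 48915 young and 22141 old Kap1 peaks. The H3K14ac lists held 19350 and 20463 peaks. In old liver the closest Kap1 peak was 1615 bp from Rps20 and the closest Setdb1 peak 2408 bp from Rpl8.

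The promoters were read from the RefSeq table, 250 bases before to 50 after the start, which matched 56 of the 76 genes and 15703 coding genes in all. CCGGAAG was present on either strand in 24 of the 56 (42.9%) against 12.6% of all promoters, and AAGATGG in 8 (14.3%) against 6.50%. GGGCGG was found in 57.1% against 48.5%, CCAAT in 30.4% against 38.3% and TATAAA in 5.36% against 12.9%. No motif of this set contains another, although matches may overlap the pyrimidine run. A run with at least 8 C or T on the coding strand inside the 40 bases around the RefSeq start was present in 26 promoters (46.4%) against 15.5%. In Rpl34 this run was 20 bases long and overlapped the CTTCCGG match, whereas Rpl19, Rps21 and Rplp0 had no run of 8. RefSeq and GENCODE starts of the matched genes were a median of 12.5 bp apart.

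The median ratio of observed to expected CpG in the promoters was 0.873 for ribosomal protein genes and 0.606 for all genes, with a GC content of 57.7% and 57%. The 39 matched genes with H3K14ac at either age had a median CpG ratio of 0.929, and the 17 without it 0.745. CCGGAAG was found in 17 of these 39 and in 7 of these 17 promoters, that is in 43.6% and 41.2%. AAGATGG was found in 8 of the 39 and in none of the 17. Of these 8, 6 were among 16 genes marked in old only, 2 among 17 marked at both ages and 0 among 6 marked in young only. These shares are descriptions of small sets, and a match is not a bound site.

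**Figure D4:**
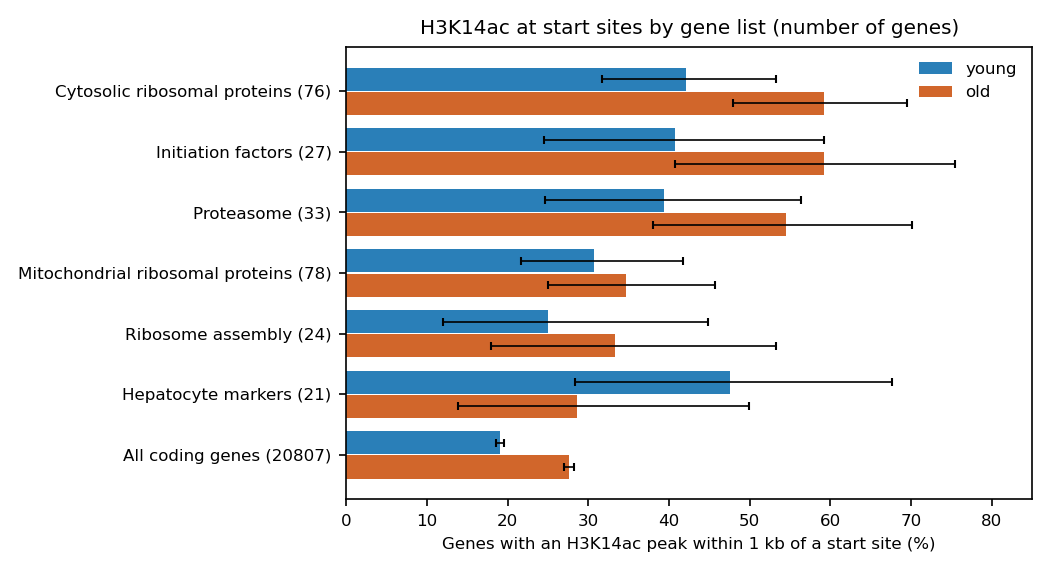
Percent of the genes in each list with an H3K14ac peak within 1 kb of a start site, in young (blue) and old (orange) liver; lines are 95% Wilson intervals, which cover counting error only. Cytosolic ribosomal protein genes reach 42.1% and 59.2%, initiation factors 40.7% and 59.3%, and all coding genes 19.0% and 27.6%.

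Other genes of the translation machinery were counted in the same way. Initiation factor genes had an H3K14ac peak at 11 of 27 starts in young and 16 of 27 in old liver, or 40.7% and 59.3%. Among the 6 elongation factor genes 4 were marked in young (66.7%) and 5 in old liver (83.3%), with Eef1a1 and Eef2 at both ages. Of 7 genes of ribosomal or related proteins that the symbol rule leaves out, 4 were marked in young (57.1%) and 5 in old liver (71.4%), among them Rack1 at both ages. The shares of both small lists were above those of the cytosolic genes, with intervals that overlapped theirs. Proteasome genes, a housekeeping complex outside translation, had 13 and 18 of 33 (39.4% and 54.5%). Ribosome assembly genes had 6 and 8 of 24 (25% and 33.3%).

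The 78 mitochondrial ribosomal protein genes, whose products serve the ribosome of that organelle, had an H3K14ac start-site peak at 24 genes in young liver (30.8%, 21.6% to 41.7%) and at 27 in old liver (34.6%). Their share lay below the interval of the cytosolic genes at both ages. The cytosolic interval was 31.6% to 53.3% in young and 48.0% to 69.6% in old liver. The intervals of both sets overlapped in young but not in old liver, where the mitochondrial interval was 25.0% to 45.7%. At both ages 11 mitochondrial genes were marked, or 14.1% (8.06% to 23.5%), near the 12.0% of all coding genes. These genes have another coding start within 1 kb more often, at 33 of 78 against 14 of 76, and the part of neighbours in the comparison was not tested.

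Genes around and within the ribosomal protein genes were also counted. Of the 14 genes with another coding start within 1 kb, 8 were marked in young and 9 in old liver, or 57.1% and 64.3%, against 31.3% and 42.2% of all coding genes with such a neighbour. Of the other 62, 24 and 36 were marked, or 38.7% and 58.1%, against 17.3% and 25.6%. Small nucleolar RNAs, which guide the modification of ribosomal RNA, are encoded inside 27 of the 76 genes. Of these hosts 9 were marked in young and 16 in old liver, or 33.3% and 59.3%, against 26.6% and 41.8% of the 244 coding genes that hold one. Of the 49 other genes 23 and 29 were marked, or 46.9% and 59.2%, against 19.0% and 27.5%.

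Ribosomal proteins have many processed pseudogenes, and reads that align to several copies were not kept, so that a duplicated stretch can lose its peaks. Of the 100 bp stretches of the start windows, 4.14% had a second copy in the genome, against 7.85% for all coding genes. At least 1 such stretch was present at 34 of the 76 genes, or 44.7%, against 18.5%. It was present at 6 of the 22 genes marked at both ages, 6 of 10 marked in young only, 14 of 23 marked in old only and 8 of the 21 unmarked genes. Of 259 ribosomal protein pseudogenes, 4 in young and 7 in old liver had an H3K14ac peak within 1 kb, 9 and 3 a Setdb1 peak, and 11 and 5 a Kap1 peak. For 8934 other processed pseudogenes the shares were 2.82% and 2.44% for H3K14ac, 6.74% and 1.98% for Setdb1, and 9.35% and 4.31% for Kap1, against 1.54% and 2.70%, 3.47% and 1.16%, and 4.25% and 1.93% for the ribosomal protein pseudogenes.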

How the data were processed

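ChIP-Seq of liver had been aligned by the authors to mm10 with BWA. Duplicates were removed with Picard, uniquely aligned reads were kept, the livers of an age were merged and peaks were called against input with PeakSeq, with a threshold that differed by mark. The deposited lists hold chromosome, start and end of each peak in bp and no other value, neither score nor read count. Merged livers allow no replicate error and no test. GRCm38.p6, the build of mm10, was used with GENCODE M21 basic genes. A peak belonged to a gene when at least 1 bp lay within 1 kb of any annotated start, and offsets refer to the start nearest to the peak's midpoint. A representative start is the one with a CAGE tag, then the principal transcript, then the best support. Genes were named by this rule: those with a Setdb1 or Kap1 peak, with H3K14ac overlapping between ages, with the most covered or most different bp, with no peak, and the P stalk. Members and lists were chosen with earlier results of these data known. Second copies were sought with minimap2 2.31 (at least 90% of the length at 95% identity or more). Overlaps were checked against bedtools 2.31.1 on 12 sets of genes, of which 0 differed, and tested on simulated data, where 200 of 200 planted genes among 20807 were recovered. Python 3.11.15 and pysam 0.24.0 were used. Some genes that this rule names are counted but not reported by name here. The 4 sequential ChIP samples were not analysed here.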

Additional observations from a re-analysis of the deposited data

How the results depend on the processing

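The 9 counts of genes (6 lists, and both ages for each mark) were recomputed under 10 alternatives: windows of 500 bp or 5 kb, peaks set to 200 bp, at least 50% of the peak in the window, a single RefSeq start, genes with a neighbouring start left out, peaks with a second copy left out, peaks within 1 kb merged, the gene body added, and, chosen after seeing the data, the representative start. Of 90 values, 83 were within 1.5 times the count reported and 7 were not. Over the settings that kept all 76 genes, H3K14ac was found at 28 to 35 genes in young liver, 44 to 49 in old and 18 to 26 at both ages. Over all 10 alternatives the shares of all coding genes ran from 17.3% to 28.6%, 25.6% to 36.8% and 10.7% to 18.7%, and with the gene body added the young share was 42.1% against 28.6%. The background of Kap1 in young liver, 5.48% as reported, was 4.34% with the single RefSeq start, where 0 of 56 genes had a peak. Setdb1 in young liver, 1 gene as reported, fell to 0 with 500 bp and rose to 6 with 5 kb and to 5 with the gene body. Setdb1 in old liver rose from 0 to 1 with 5 kb. Kap1 in young liver rose from 0 to 4 with 5 kb and to 4 with the gene body, and Kap1 in old liver from 0 to 1 with 5 kb. Wider regions include more peaks by construction, and over all coding genes the 5 kb shares were 17.6% (Setdb1, young), 5.44% (Setdb1, old) and 15.8% (Kap1, young), and 1665 of 20807 genes had a Kap1 peak in old liver. No paired analysis was possible because the livers of an age are pooled in 1 list, which also leaves no replicate to omit. No stricter threshold could be tried because the lists hold no score.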
